A study of Homo sapiens with 6 samples.

Results

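The genes described here lie close together at the end of the short arm of chromosome 5 (5p), from PLEKHG4B to TRIO. They were taken by name from a fixed list of 39 symbols, and all 39 were found among the 17110 genes of the deposited table and placed on chromosome 5 by the RefSeq annotation. Another 8 genes of that table lie between them and are not on the list. The list was proposed with the sphere and parental values of these libraries in view. The sphere minus parental values of the members are therefore given as a description. Their calls in the fit across all genes are counted beside the share of all genes, and nothing is read from them as support.

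The study compared 2 groups of CAL-27 cells, an established human line of tongue squamous carcinoma origin. Sphere cells (3 libraries) were obtained by suspension culture, which the submitters used to isolate cancer stem cells, and parental cells (3 libraries) grew attached. The labels name no genotype, agent, culture time or passage for either group, and do not say whether both came from the same stock or whether replicates were separate cultures, so the spread between libraries may be technical. Levels were given as TPM, which is scaled per transcript length and to a fixed total per library and keeps no sequencing depth.

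The end of 5p carries genes of unrelated function. CCT5, a subunit of the chaperonin that folds actin and tubulin, and the RNA methyltransferase NSUN2 are used by most cells. TERT, the catalytic subunit of telomerase, is silent in most adult tissues and active in most cancers, and the Iroquois transcription factors are also of restricted expression. Gain of 5p is among the recurrent chromosome changes of squamous cell carcinomas, but DNA was not measured here.

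Most of the 5p genes were lower in sphere libraries than in parental libraries. Together the 39 genes made up 1215.7, 1187.7 and 1203.0 TPM in the sphere libraries, against 2954.8, 3037.8 and 2891.7 TPM in the parental libraries, so that the sphere mean was 40.6% of the parental mean. Without CCT5, the most abundant member, the sum averaged 973 ± 19.0 TPM in sphere and 2139 ± 53.1 TPM in parental libraries (SD, n = 3 each), or 45.5%. The groups did not overlap in either sum. In a bulk sample, less RNA per cell and fewer cells with the RNA cannot be told apart.

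Of the 39 genes, 35 had a mean of at least 1 TPM over the 6 libraries and entered a fit across all 12261 such genes with limma on log2(TPM + 1). Of these 35, 31 were lower and 4 were higher in sphere libraries past an adjusted p of 0.05, where 48.2% of all tested genes were lower and 35.1% were higher past the same threshold. The same 31 genes were lower with no overlap between the groups, as were 48.9% of all tested genes. At least 2-fold lower on the log2(TPM + 1) scale were 18 of the 35, and 14.7% of all tested genes. The median difference was -1.06 for the 35 genes, with quartiles of -1.90 and -0.70, and -0.13 for all tested genes, with quartiles of -0.68 and 0.45. The standard errors of the single differences were 0.035 for MED10 to 0.235 for ROPN1L. With median-of-ratios scaling the median of all tested genes moved by 0.16 to 0.03 and that of the 35 genes to -0.91.

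**Figure D1:**
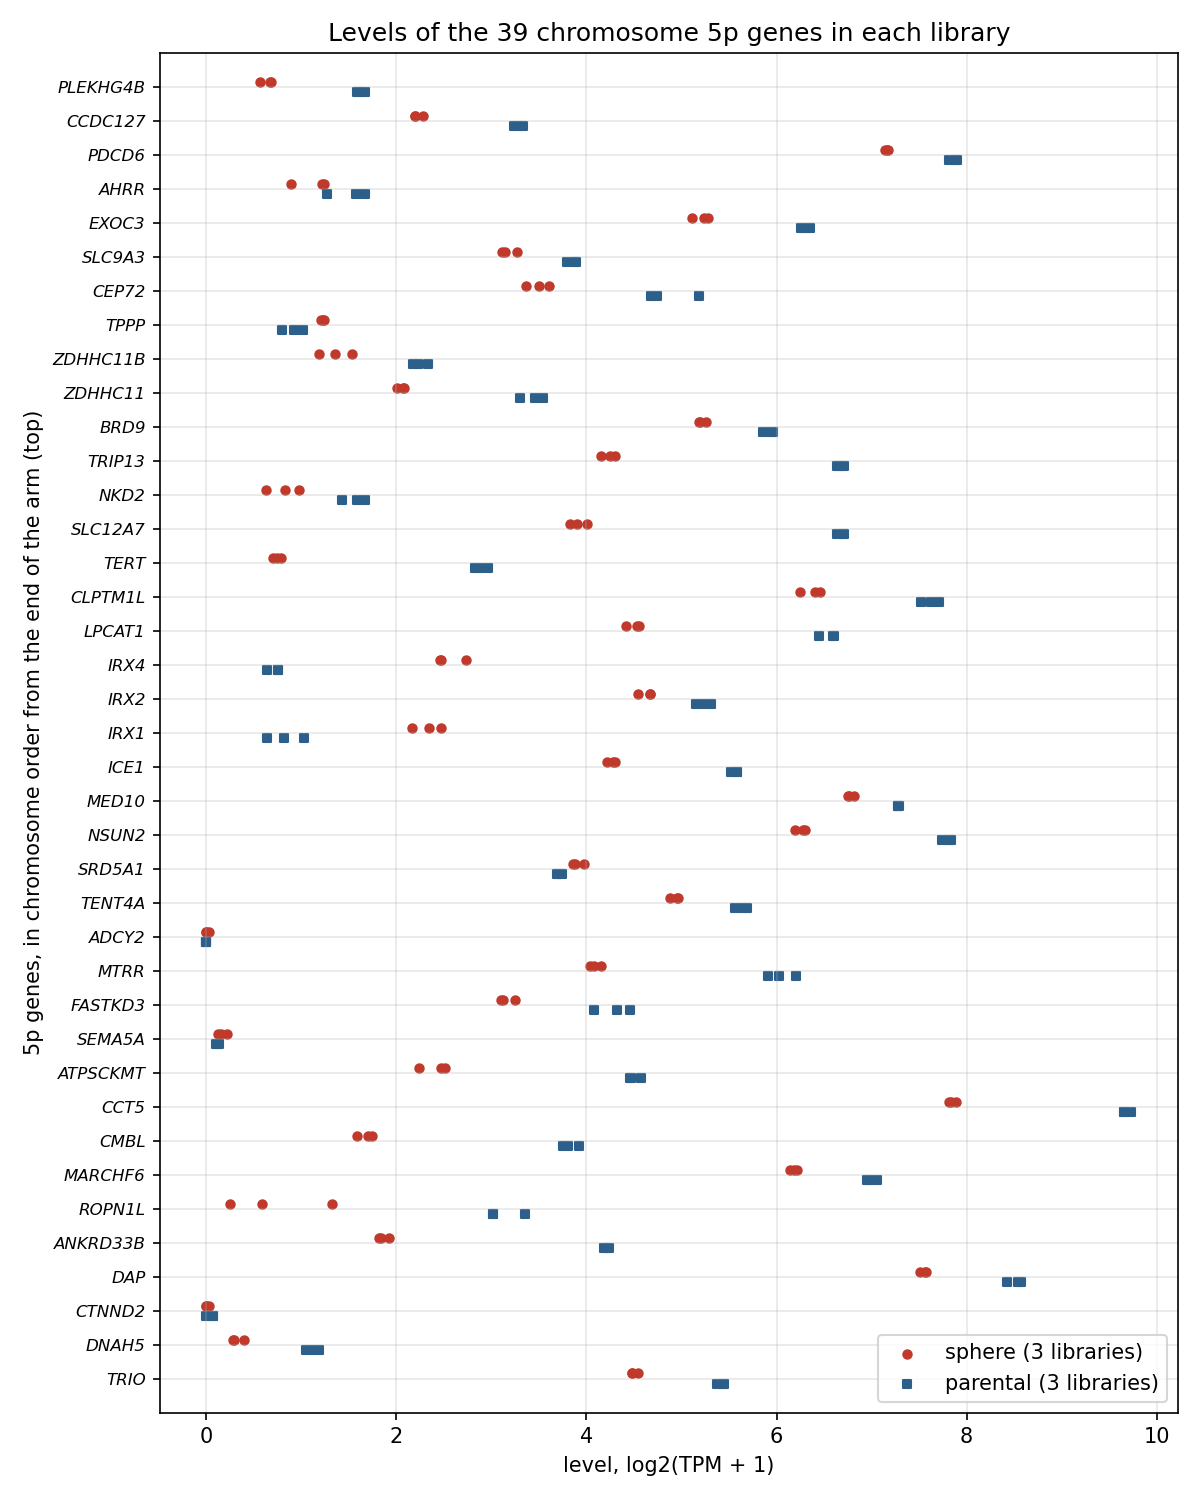
Level of each of the 39 genes on the log2(TPM + 1) scale (horizontal), in chromosome order from the end of the arm (top) to TRIO (bottom), with 1 point per library, sphere as red circles and parental as blue squares. Sphere points lie left of parental points for most genes, and right of them for TPPP, IRX4, IRX1 and SRD5A1.

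On the TPM scale, the median of the tested 5p genes kept 41.9% of its parental level in sphere libraries, while the median of all tested genes stood at 90.0%. The sphere mean was under 25% of the parental mean in 9 genes, from 25% to 50% in 12, and from 50% to 100% in 10. It was above 100% in 4. Both the size of the difference and, for these 4, its direction thus varied between members. The 4 genes below the filter were ADCY2 (an adenylyl cyclase), CTNND2 (delta-catenin, known from neurons), SEMA5A (a semaphorin) and DNAH5 (an axonemal dynein heavy chain). Of these, ADCY2, CTNND2 and SEMA5A stayed at or under 0.16 TPM in every library. DNAH5 had 0.32, 0.21 and 0.22 TPM in sphere libraries, against 1.28, 1.07 and 1.16 TPM in parental libraries. A filter on the mean keeps a low gene only if 1 group is high enough. Of the 35 tested genes, 4 were under 1 TPM on average in sphere libraries (PLEKHG4B, NKD2, TERT and ROPN1L), and all were called lower. In parental libraries 3 were under 1 TPM (TPPP, IRX4 and IRX1), and all were called higher. Each of these passed the filter through its higher group.

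**Figure D2:**
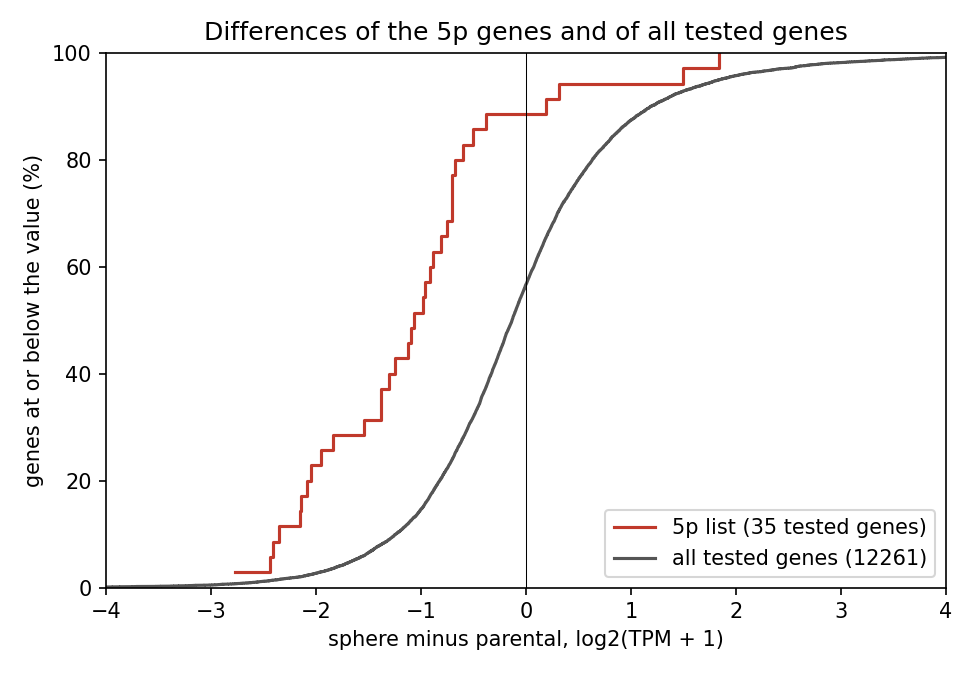
Cumulative share of genes (vertical, %) at or below each sphere minus parental difference on log2(TPM + 1) (horizontal), for the 35 tested 5p genes (red) and all 12261 tested genes (grey). The 5p curve crosses its middle at -1.06 and the curve of all genes at -0.13.

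TERT, TRIP13 and CEP72 act in telomere maintenance and cell division, and all were lower in sphere libraries. TERT (Entrez Gene 7015), the reverse transcriptase of telomerase, had 0.72, 0.67 and 0.63 TPM in sphere libraries, against 6.28, 6.80 and 6.08 TPM in parental libraries, a difference of -2.14 on the log2 scale. TRIP13 (Entrez Gene 9319), an ATPase that remodels HORMA-domain proteins of the spindle checkpoint, had 18.7, 16.8 and 17.96 TPM in sphere libraries, against 103.7, 98.5 and 100.3 TPM in parental libraries (-2.44). CEP72, a centrosomal protein, had 9.26, 10.3 and 11.1 TPM in sphere libraries, against 24.7, 25.8 and 35.3 TPM in parental libraries (-1.38). The groups were far apart in all these genes, with 1 parental library high for CEP72. In the same libraries all 14 genes of a proliferation list (such as MKI67 and TOP2A) fell, with a median of -1.87 and a summed level of 626 to 650 TPM in sphere and 2418 to 2447 TPM in parental libraries. The part of this change in the 5p values was not tested.

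TRIP13 lies head to head with BRD9, and the starts of the pair are 83 bases apart in the RefSeq annotation (GRCh38.p14). Its promoter window, from 250 bases before to 50 after the start (chr5:892634-892933, plus strand), is shown because both genes start within it. Capitals mark the 182 bases that also belong to the window of BRD9 on the other strand.
TRIP13: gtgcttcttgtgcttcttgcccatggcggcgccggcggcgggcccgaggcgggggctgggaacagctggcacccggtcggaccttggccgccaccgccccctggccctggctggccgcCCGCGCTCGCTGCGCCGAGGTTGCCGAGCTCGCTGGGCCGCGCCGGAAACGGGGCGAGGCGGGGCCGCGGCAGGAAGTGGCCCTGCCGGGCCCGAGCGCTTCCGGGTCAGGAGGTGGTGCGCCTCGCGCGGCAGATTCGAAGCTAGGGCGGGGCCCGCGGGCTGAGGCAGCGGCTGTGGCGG
The window is 78.0% G and C and holds 3 GC boxes (GGGCGG on either strand), no CCAAT and no TATAAA. Despite the shared stretch the pair differed in size: BRD9 (Entrez Gene 65980), the bromodomain subunit of a form of the BAF chromatin remodeller, had 37.3, 35.2 and 35.7 TPM in sphere libraries, against 56.8, 61.5 and 60.2 TPM in parental libraries (-0.71). TRIP13 stood at 0.475 to 0.503 times the level of BRD9 in sphere libraries, against 1.60 to 1.83 times in parental libraries.

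A like pair stands at the very end of the arm, where CCDC127 lies head to head with SDHA, a gene of the span that is not on the list. Their starts are 167 bases apart and their windows share 266 bases, in capitals in the window of CCDC127 (chr5:218104-218403, minus strand, GRCh38.p14).
CCDC127: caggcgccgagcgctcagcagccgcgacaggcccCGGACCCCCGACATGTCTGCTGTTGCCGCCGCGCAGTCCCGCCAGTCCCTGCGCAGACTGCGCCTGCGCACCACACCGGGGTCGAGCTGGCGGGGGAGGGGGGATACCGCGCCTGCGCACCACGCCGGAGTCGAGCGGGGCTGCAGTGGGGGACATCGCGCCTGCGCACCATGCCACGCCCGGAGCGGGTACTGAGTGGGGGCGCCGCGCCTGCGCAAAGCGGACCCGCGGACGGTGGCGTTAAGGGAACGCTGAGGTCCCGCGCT
CCDC127 had 3.57, 3.58 and 3.87 TPM in sphere libraries, against 8.44, 9.06 and 8.80 TPM in parental libraries (-1.06). SDHA, the flavoprotein of succinate dehydrogenase, had 121, 116 and 119 TPM in sphere libraries, against 385, 390 and 393 TPM in parental libraries (-1.70). Both were lower with no overlap. The window holds no GC box, CCAAT box or TATA box.

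The RefSeq promoter table held 32 windows of 28 of the 35 tested genes. Their median content of G and C was 75.3%, against 64.7% for the 14727 windows of all tested genes that it held. At least 1 GGGCGG on either strand was in 28 of the 32 windows (87.5%), against 66.2% of all. CCAAT on either strand was in 8 (25%), against 34.8%. The E-box CACGTG was in 3 (9.38%), against 9.40%, in the windows of TERT, SLC12A7 and IRX1. TTTGGCGC, an E2F-type motif, was in 1, that of PDCD6, against 0.957%, and TATAAA was in 0, against 6.65%. These matches describe letters and not bound sites, and windows of neighbours overlap. The genes with a GGGCGG included ones with large differences, such as SLC12A7 and LPCAT1, and ones that were higher in sphere libraries, such as IRX4.

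Of the members that act in transcription and RNA processing, NSUN2, ICE1, TENT4A, MED10, BRD9, AHRR and IRX2 were lower in sphere libraries, and IRX4 and IRX1 were higher. NSUN2 (Entrez Gene 54888), which methylates cytosines of tRNA, had 77.7, 76.4 and 72.0 TPM in sphere libraries, against 213, 227 and 225 TPM in parental libraries (-1.55). ICE1, a scaffold of the little elongation complex that acts in transcription of small nuclear RNA genes, had 18.4, 18.6 and 17.6 TPM in sphere libraries, against 46.9, 47.1 and 44.96 TPM in parental libraries (-1.30). TENT4A, a non-canonical poly(A) polymerase, had 29.9, 28.4 and 30.1 TPM in sphere libraries, against 46.3, 49.1 and 50.5 TPM in parental libraries (-0.70). None of these overlapped, and the spread within each group was small beside the gap. MED10 (Entrez Gene 84246), a subunit of Mediator, had 107, 111 and 108 TPM in sphere libraries, against 154, 154 and 156 TPM in parental libraries. Its difference of -0.50, which was -0.33 with median-of-ratios scaling, was among the smallest of the genes that were lower.

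AHRR, a repressor of the aryl hydrocarbon receptor that is itself a target of it, had 1.35, 0.86 and 1.33 TPM in sphere libraries, against 2.17, 1.97 and 1.41 TPM in parental libraries. The groups came close, at 1.35 TPM for the highest sphere and 1.41 TPM for the lowest parental library. Its difference of -0.39 was -0.61 with a pseudocount of 0.1. It no longer passed with median-of-ratios scaling (-0.28), without sphere replicate 2 (-0.27), without parental replicate 1 (-0.30) or without parental replicate 2 (-0.35).

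The Iroquois homeobox genes, transcription factors of tissue patterning, lie as a cluster of 3 on 5p and moved in both directions. IRX2 (Entrez Gene 153572), the most abundant, had 24.4, 22.4 and 24.4 TPM in sphere libraries, against 36.7, 38.7 and 34.5 TPM in parental libraries (-0.61). IRX4 (Entrez Gene 50805) had 4.51, 4.55 and 5.64 TPM in sphere libraries, against 0.68, 0.56 and 0.68 TPM in parental libraries (1.84). IRX1 (Entrez Gene 79192) had 4.09, 3.48 and 4.53 TPM in sphere libraries, against 0.56, 0.76 and 1.04 TPM in parental libraries (1.5, and 2.25 with a pseudocount of 0.1). IRX4 and IRX1 were thus 7.66-fold and 5.13-fold higher in sphere libraries on the TPM scale while their neighbour IRX2 was lower. The 3 genes together came to 30.4 to 34.5 TPM in sphere libraries, against 36.2 to 40.0 TPM in parental libraries, and IRX2 made up 70.6% to 73.9% of the sum in sphere and 95.2% to 96.7% in parental libraries. Of the Iroquois genes outside 5p, IRX3 and IRX5 rose (IRX3 at 7.46 ± 0.74 TPM in sphere and 3.24 ± 0.44 TPM in parental libraries, SD, n = 3 each) and IRX6 was below the filter.

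Genes of protein folding, trafficking and turnover included the most abundant members. CCT5 (Entrez Gene 22948) had 228, 236 and 224 TPM in sphere libraries, against 807, 850 and 809 TPM in parental libraries (-1.84). DAP, a negative regulator of autophagy, had 190, 181 and 188 TPM in sphere libraries, against 379, 370 and 344 TPM in parental libraries (-0.96). PDCD6, a calcium-binding adaptor of vesicle trafficking, had 143, 142 and 140 TPM in sphere libraries, against 236, 237 and 225 TPM in parental libraries (-0.71). These abundant genes were lower in every sphere library, CCT5 to 27.9% of its parental mean and PDCD6 to 61.0%. Of the 50-base stretches of CCT5, 29.8% also occur in another annotated gene, so its reads may be divided. MARCHF6, a ubiquitin ligase of the endoplasmic reticulum, had 71.8, 69.6 and 73.5 TPM in sphere libraries, against 125, 132 and 122 TPM in parental libraries (-0.81). EXOC3, a subunit of the exocyst that tethers vesicles to the plasma membrane, had 37.7, 33.6 and 36.6 TPM in sphere libraries, against 80.5, 78.3 and 75.8 TPM in parental libraries (-1.10). Neither gene overlapped between the groups.

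ZDHHC11 and ZDHHC11B are neighbouring palmitoyltransferase genes and near copies. ZDHHC11 had 3.01, 3.19 and 3.24 TPM in sphere libraries, against 10.02, 10.7 and 8.83 TPM in parental libraries (-1.38). ZDHHC11B had 1.90, 1.28 and 1.55 TPM in sphere libraries, against 3.52, 4.03 and 3.67 TPM in parental libraries (-0.88). Of the distinct 50-base stretches (the read length) of GENCODE 29 transcripts of ZDHHC11B, 31.9% also occur in another gene, all in ZDHHC11, so the division of reads between both is uncertain. Their sum was lower without overlap too, at 4.47 to 4.91 TPM in sphere libraries, against 12.5 to 14.7 TPM in parental libraries.

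Genes of metabolism and membrane transport showed both the largest and the smallest differences. SLC12A7 (Entrez Gene 10723), a potassium-chloride cotransporter, had 15.1, 13.1 and 13.9 TPM in sphere libraries, against 103, 104 and 98.3 TPM in parental libraries. Its difference of -2.77 was the largest fall in size among the 35 tested 5p genes, and 0.710% of all tested genes had a lower value. LPCAT1, an acyltransferase that remodels phosphatidylcholine, had 22.2, 20.3 and 22.5 TPM in sphere libraries, against 96.2, 95.7 and 86.4 TPM in parental libraries (-2.05). MTRR, which reactivates methionine synthase, had 15.9, 15.5 and 16.8 TPM in sphere libraries, against 59.2, 72.6 and 64.2 TPM in parental libraries (-1.95). Both kept about the same small share of the parental level, 23.3% for LPCAT1 and 24.6% for MTRR. ATPSCKMT, a lysine methyltransferase of the mitochondrial ATP synthase, had 3.71, 4.70 and 4.55 TPM in sphere libraries, against 22.8, 21.0 and 21.1 TPM in parental libraries (-2.09). FASTKD3, a mitochondrial RNA-binding protein and neighbour of MTRR, had 8.53, 7.72 and 7.56 TPM in sphere libraries, against 19.0, 20.9 and 15.9 TPM in parental libraries (-1.13). CMBL, a cysteine hydrolase, had 2.24, 2.35 and 2 TPM in sphere libraries, against 14.2, 12.4 and 13.0 TPM in parental libraries (-2.15). In each of these the lowest parental library was well above the highest sphere library.

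CLPTM1L, a membrane protein next to TERT, had 87.1, 75.1 and 83.8 TPM in sphere libraries, against 197, 209 and 183 TPM in parental libraries (-1.25). SLC9A3, a sodium-hydrogen exchanger, had 8.66, 7.66 and 7.81 TPM in sphere libraries, against 12.8, 13.8 and 13.8 TPM in parental libraries (-0.68), and 49.4% of its 50-base stretches occur in another gene. SRD5A1 (Entrez Gene 6715), a steroid 5-alpha-reductase, had 13.5, 13.7 and 14.8 TPM in sphere libraries, against 12.4, 12.0 and 11.9 TPM in parental libraries. SRD5A1 was thus slightly higher in sphere libraries, and it was the 1 gene of 24 with a parental mean of at least 10 TPM that was not lower. Its difference of 0.19 was 0.36 with median-of-ratios scaling and did not pass without sphere replicate 3 (0.15). It stands between NSUN2 and TENT4A, both of which were lower.

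Among the remaining genes of signalling and cytoskeleton, TRIO (Entrez Gene 7204), an exchange factor for RAC1 and RHOA, had 21.3, 21.4 and 22.3 TPM in sphere libraries, against 42.3, 42.6 and 40.5 TPM in parental libraries (-0.92). ANKRD33B had 2.51, 2.79 and 2.57 TPM in sphere libraries, against 17.9, 17.2 and 17.5 TPM in parental libraries (-2.35). ROPN1L, a protein known from the sperm flagellum, had 0.19, 0.50 and 1.5 TPM in sphere libraries, against 9.21, 7.11 and 7.11 TPM in parental libraries (-2.41). The sphere libraries of ROPN1L differed among themselves by over 1 TPM, yet all lay far under the parental ones. PLEKHG4B, a guanine nucleotide exchange factor, had 0.48, 0.59 and 0.60 TPM in sphere libraries, against 2.07, 2.18 and 2 TPM in parental libraries (-0.99, and -1.74 with a pseudocount of 0.1). NKD2, an antagonist of Wnt signalling, had 0.54, 0.77 and 0.96 TPM in sphere libraries, against 2.17, 1.69 and 2.01 TPM in parental libraries (-0.75, and -1.29 with a pseudocount of 0.1). TPPP, a tubulin polymerisation promoter, had 1.34, 1.36 and 1.3 TPM in sphere libraries, against 0.73, 0.89 and 1.03 TPM in parental libraries. TPPP was higher by 0.31, a call that was lost without sphere replicate 1 (0.31), sphere replicate 2 (0.30), sphere replicate 3 (0.32) or parental replicate 1 (0.25), and it was 0.55 with a pseudocount of 0.1.

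The tested genes of the same span that the list leaves out were also lower. Of 8 such genes in the table, 4 were tested and all 4 were lower in sphere libraries past the threshold, where 48.2% of all tested genes were, with a median of -1.53. Besides SDHA these were NDUFS6, a subunit of respiratory complex I (409, 394 and 382 TPM in sphere libraries, against 1008, 1057 and 957 TPM in parental libraries), and MRPL36, a mitochondrial ribosomal protein (93.4, 85.1 and 88.3 TPM in sphere libraries, against 215, 216 and 197 TPM in parental libraries). ADAMTS16, a secreted metalloprotease, had 0.04, 0.08 and 0.06 TPM in sphere libraries, against 4.38, 4.15 and 3.57 TPM in parental libraries. ADAMTS16, which is in the count of 4 and in the median, passed the filter through its parental level alone. The 4 untested genes stayed at or under 0.18 TPM in every library. The span takes its bounds from the list, which was proposed with this contrast in view, so these counts are a description. A further 2 genes have RefSeq start positions that fall within the span but are not counted as genes of it. GENCODE 29 has no such gene on chromosome 5, and a RefSeq position can come from an alternate scaffold. Their place, on 5p or elsewhere, is therefore uncertain. Of these, GTF2H2C_2 had 11.7, 15.7 and 13.4 TPM in sphere libraries, against 27.9, 28.4 and 24.0 TPM in parental libraries, and LOC107987433, which was below the filter, was higher, with 0.72, 1.04 and 0.80 TPM in sphere libraries, against 0.42, 0.37 and 0.39 TPM in parental libraries. GTF2H2C, a gene of like name to GTF2H2C_2, stands on 5q in the gene order used here. In chromosome order the 39 tested genes of the span formed long runs on 1 side. The first 8, from PLEKHG4B to CEP72, were lower, as were 11 in a row from ZDHHC11B to NDUFS6 and the last 11 from TENT4A to TRIO. TPPP and SRD5A1 were each higher between lower neighbours, and IRX4 and IRX1 were higher on both sides of IRX2.

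Further along the arm the differences were nearer to those of all genes. Of 51 tested genes of 5p beyond TRIO, 27 were lower (52.9%) and 13 were higher past the threshold, with a median of -0.22. With median-of-ratios scaling these were 23 and 20, with a median of -0.07, while the 5p list still had 30 lower and 4 higher. Of the 8 tested genes next after TRIO, 6 were lower (75%) and 2 were higher, with a median of -0.40. Of all tested genes 48.2% were lower and 35.1% were higher. Among the 43 tested genes of 5p after those 8, 48.8% were lower, with a median of -0.15. OTULIN, a deubiquitinase of linear ubiquitin chains, rose (15.9, 17.1 and 16.1 TPM in sphere libraries, against 12.7, 12.5 and 11.5 TPM in parental libraries), and so did C5orf22 (22.9, 23.3 and 23.0 TPM in sphere libraries, against 18.2, 16.1 and 19.5 TPM in parental libraries). ANKH, RETREG1 and DROSHA fell by 1.17, 1.97 and 0.83 on the log2 scale and ZNF622, MYO10 and BASP1 by 0.35, 0.44 and 0.36. All 8 kept their direction and passed the threshold under the other scaling, where ZNF622 was at -0.18, BASP1 at -0.18 and MYO10 at -0.27. On 5q, 223 of 460 tested genes were lower (48.5%) and 156 were higher, with a median of -0.13. The whole span from PLEKHG4B to TRIO had a median of -1.13 over its 39 tested genes.

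**Figure D3:**
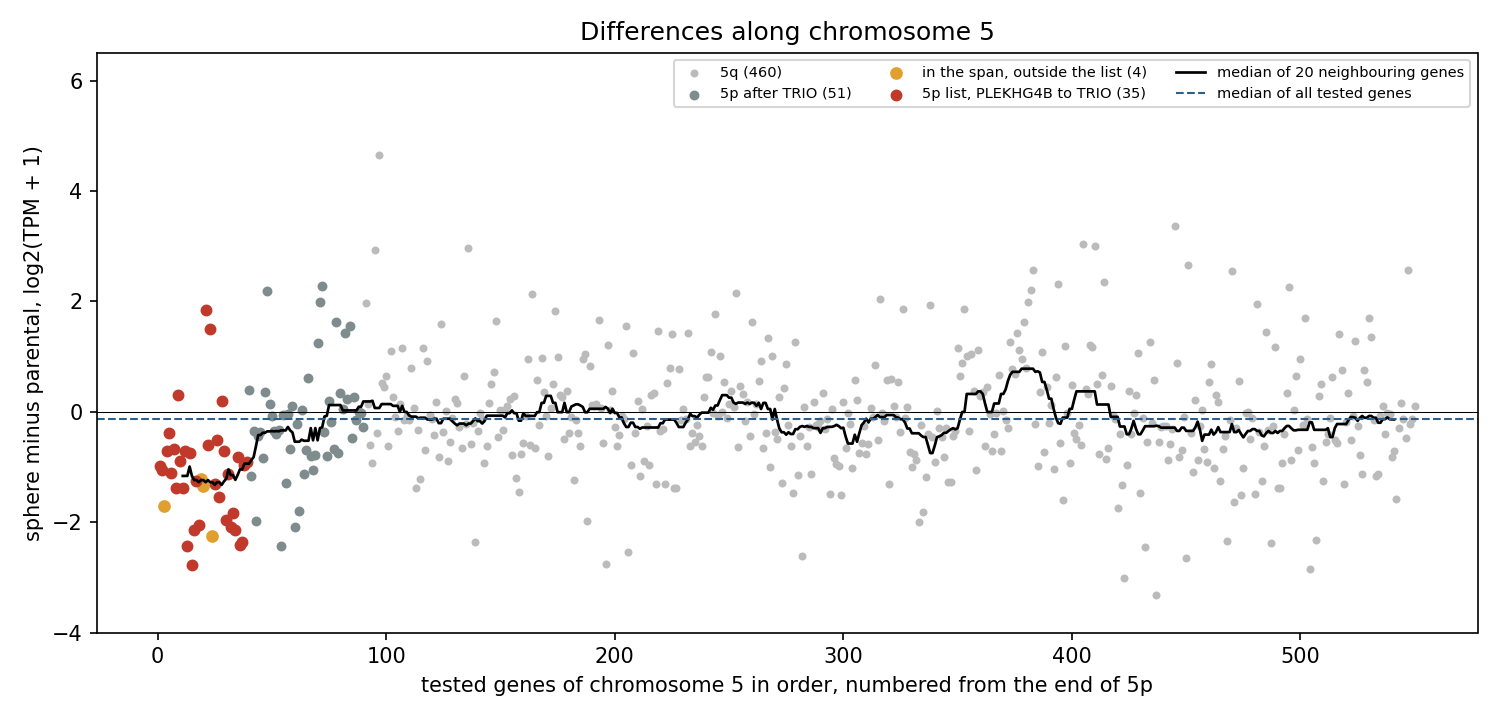
Sphere minus parental difference on log2(TPM + 1) (vertical) of the 550 tested genes of chromosome 5, numbered in order from the end of 5p (horizontal). Points are the 35 tested genes of the list (red), 4 others in the same span (orange), 51 further genes of 5p (dark grey) and 460 of 5q (light grey), with the running median of 20 neighbours (black) and the median of all tested genes at -0.13 (dashed). The running median is lowest at the left end.

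Genes encoded outside 5p that work with the 5p proteins, or are related to them, give a comparison within each complex, pathway or family. Of 147 such genes in 14 lists, 140 were tested, and 75 fell (53.6%) and 43 rose past the threshold, with a median of -0.25, where 48.2% of all tested genes fell. Under median-of-ratios scaling the counts were 61 and 52. Of the 13 lists built around 1 of the 5p genes that were tested, the 5p gene had a lower difference than the median of its list in 13 and a lower one than every other tested gene in 6. As the 5p genes were chosen on this contrast, these ranks are a description. The 6 were CCT5, TRIP13, TERT, ICE1, NKD2 and SLC12A7. ICE1 was only just under EAF2 (-1.30 against -1.27). On the TPM scale EAF2 kept less of its parental level than ICE1, 37.1% against 39.3%. NKD1, in the list of NKD2 but below the filter, had a lower difference than NKD2.

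All 7 other subunits of the CCT chaperonin, which builds each of its rings from all subunits, fell by 0.45 to 1.24 on the log2 scale, against -1.84 for CCT5. CCT7 fell most, at 388 ± 0.8 TPM in sphere and 916 ± 20.5 TPM in parental libraries (SD, n = 3 each). Of the telomerase and shelterin genes 11 of 14 fell, led by WRAP53 (17.1 ± 0.3 TPM in sphere and 50.7 ± 2.9 TPM in parental libraries), and 3 rose, led by TERF2IP (75.6 ± 1.2 TPM in sphere and 31.3 ± 2.2 TPM in parental libraries). Of 8 spindle checkpoint genes 6 fell, led by CDC20 (72.9 ± 1.5 TPM in sphere and 363 ± 2.2 TPM in parental libraries), and MAD1L1 rose (66.2 ± 2.6 TPM in sphere and 54.7 ± 0.4 TPM in parental libraries). The partners of CCT5, TERT and TRIP13 were thus mostly lower as well. Of 13 genes of the methionine and folate cycles, the pathway of MTRR, 10 fell and 2 rose.

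In other complexes the tested partners mostly did not share the direction of the 5p gene. Of 8 other exocyst subunits 5 rose, led by EXOC6B (28.7 ± 0.9 TPM in sphere and 18.6 ± 1.4 TPM in parental libraries), and 2 fell, led by EXOC6 (6.58 ± 0.43 TPM in sphere and 15.4 ± 1.5 TPM in parental libraries). Of 8 genes of the little elongation complex and its factors 4 rose, led by ELL2 (89.7 ± 4.0 TPM in sphere and 51.2 ± 1.8 TPM in parental libraries), and 2 fell, led by EAF2 (5.49 ± 0.22 TPM in sphere and 14.8 ± 2.5 TPM in parental libraries). Of 6 tested Wnt feedback and Dishevelled genes 5 rose, led by DVL1 (113 ± 6.7 TPM in sphere and 55.2 ± 5.7 TPM in parental libraries), and ZNRF3 fell (2.84 ± 0.25 TPM in sphere and 4.58 ± 0.15 TPM in parental libraries). NKD1 and AXIN2 of this list were below the filter. NKD1 had 0.04, 0.08 and 0.04 TPM in sphere libraries, against 0.78, 0.99 and 0.89 TPM in parental libraries. Its difference of -0.84 on log2(TPM + 1) was under the -0.75 of NKD2. AXIN2 stayed at or under 0.13 TPM in every library. EXOC3, ICE1 and NKD2 were lower, while more of the other tested genes in each of their lists rose than fell. In the AHR pathway 6 of 10 tested genes rose, led by CYP1A1 (23.0 ± 0.5 TPM in sphere and 1.11 ± 0.32 TPM in parental libraries), and 3 fell, led by NQO1 (35.9 ± 1.7 TPM in sphere and 78.8 ± 2.7 TPM in parental libraries).

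The lists around MED10, BRD9 and MARCHF6 were mixed. Of 30 other Mediator genes 15 fell, led by CDK19 (3.88 ± 0.34 TPM in sphere and 9.57 ± 0.85 TPM in parental libraries), and 7 rose, led by MED22 (30.6 ± 1.2 TPM in sphere and 21.1 ± 1.7 TPM in parental libraries), while the other scaling gave 7 and 10. Of 11 BAF genes 5 fell, led by SMARCC1 (22.9 ± 1.4 TPM in sphere and 40.0 ± 0.9 TPM in parental libraries), and 4 rose, led by BCL7A (6.76 ± 0.37 TPM in sphere and 5.03 ± 0.36 TPM in parental libraries), or 4 and 5 with that scaling. Of 11 genes of degradation from the endoplasmic reticulum 6 fell, led by VCP (258 ± 8.6 TPM in sphere and 505 ± 15.3 TPM in parental libraries), and 2 rose, led by UBE2G2 (43.0 ± 2.3 TPM in sphere and 36.2 ± 2.5 TPM in parental libraries), or 5 and 4. Scaling thus decided which side was larger for Mediator and BAF. Of 5 tested relatives of SLC12A7, 2 fell, led by SLC12A2 (9.25 ± 0.41 TPM in sphere and 21.3 ± 1.1 TPM in parental libraries). No tested relative of SLC12A7 came near its own difference of -2.77, the lowest of them being at -1.12.

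**Figure D4:**
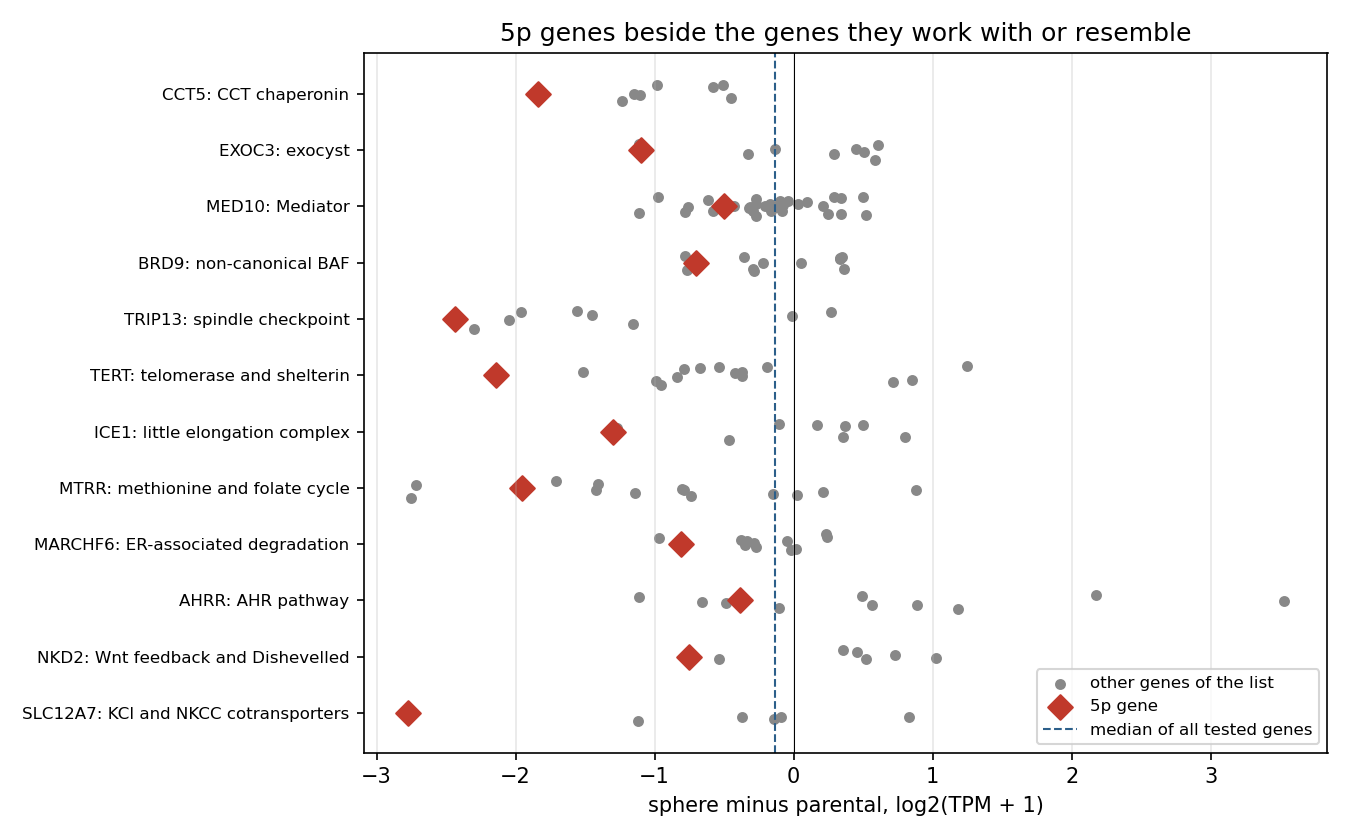
Sphere minus parental difference on log2(TPM + 1) (horizontal) of 12 genes of the 5p list (red diamonds) and of the tested genes of the complex, pathway or family each belongs to (grey points), with the median of all tested genes dashed. CCT5, TRIP13, TERT, ICE1, NKD2 and SLC12A7 lie left of every other gene in their row, ICE1 by a small margin.

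As a check of the label, all 10 markers of squamous epithelium were detected in both groups, with a summed level of 21836 to 21918 TPM in sphere and 4021 to 4119 TPM in parental libraries. Of these, 7 rose and 3 fell (2 after median-of-ratios scaling), and KRT14, a keratin of basal cells, was low in parental libraries (7705 ± 79.5 TPM in sphere and 4.69 ± 0.21 TPM in parental libraries). The summed levels of other markers were 15.6 to 17.2 TPM in sphere and 12.0 to 12.4 TPM in parental libraries for 6 fibroblast markers, among which COL1A1 rose (16.1 ± 0.9 TPM in sphere and 8.15 ± 0.06 TPM in parental libraries) and PDGFRB fell (0.09 ± 0.05 TPM in sphere and 2.63 ± 0.17 TPM in parental libraries). The sums were 1.86 to 2.25 TPM in sphere and 2.31 to 2.42 TPM in parental libraries for 5 leukocyte markers, and 0.22 to 0.30 TPM in sphere and 10.95 to 11.6 TPM in parental libraries for 4 endothelial markers. PTPRC, CD3E and COL3A1 were listed at 0 in every parental library and at no more than 0.20 TPM in sphere libraries. CDH5, an endothelial cadherin, had 0.03, 0 and 0 TPM in sphere libraries, against 11.2, 11.1 and 10.7 TPM in parental libraries. The part of these differences in the 5p values was not tested.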

How the data were processed

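Trizol-extracted total RNA of CAL-27 cells was read on a BGISEQ-500 in single-end mode at 50 bases, per the labels' protocols. The authors deposited 1 table of TPM for 17110 genes, per the file headers, rounded to 2 decimals. HISAT and Bowtie2 (no versions) are listed as tools per the submitters' processing notes, beside GRCm38.p6, a mouse build, while 17052 of the Entrez Gene IDs matched human RefSeq (GRCh38.p14), 16805 with the same symbol. Which build underlies the values is thus unclear, and RefSeq served only for names, gene order and promoter sequences. Counting tool, annotation and use of strand are not stated in the sources at hand, and overlapping genes are uncertain for that reason.

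Header columns named Control were taken as parental, the only other group, with their replicate numbers. TPM keep no depth, so precision rests on 3 libraries per group. Genes averaging at least 1 TPM over the 6 libraries were fitted with limma 3.58.1 (R 4.3.3) on log2(TPM + 1), with a variance trend, two-sided p-values, Benjamini-Hochberg adjustment over 12261 genes and a threshold of 0.05, as sphere minus parental. That scale understates changes of low genes.

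The 39 members and all lists were chosen with earlier results of these data known. Named are all members, the tested genes of the span outside the list, the 8 tested genes after TRIO, and of each list the largest rise and fall past the threshold, except some genes and the list around TRIO, which are not reported here. 5p was taken to end before EMB in gene order. Of the genes that RefSeq lists on chromosome 5, 8 without a GENCODE 29 gene there were left out of the order. The fit was repeated at a pseudocount of 0.1, unfiltered, for genes averaging 5 TPM or more, after median-of-ratios scaling, without the trend, blocked by replicate number, and with each library left out.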

Additional observations from a re-analysis of the deposited data

How the results depend on the processing

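The 5p list had 25 to 32 genes lower past the threshold over all alternatives (31 as reported, of 35 tested), the 25 among the 26 that averaged 5 TPM or more. Its median difference was -1.23 to -0.91 and, relative to all tested genes, -1.09 to -0.91. Of 411 comparisons of single members with an alternative, 402 kept direction and side of the threshold and 9 lost the call, in AHRR, TPPP and SRD5A1. None changed sign.

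The median of 5p beyond TRIO was -0.06 unfiltered, -0.27 for genes averaging 5 TPM or more, -0.072 after median-of-ratios scaling and -0.26 to -0.18 with 1 library left out. The median of all tested genes was -0.048 unfiltered and 0.030 after that scaling, under which 20 genes beyond TRIO rose instead of 13 and 51.8% of all called genes were higher instead of 42.2%. The filters and the scaling change which genes are tested or the scale, while leaving 1 library out changes neither. The cause was not tested further. Counts for partner and related genes, the span outside the list and 5p beyond TRIO, and medians relative to all genes, were added after seeing the data.

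With the replicate number as a block, 10192 genes passed (10221 without) and the same count of 31 members was lower. Deviations of same-numbered libraries from their group means correlated at r = 0.018, -0.018 and -0.055 across genes, so no shared deviation was seen. Such values cannot show whether the cultures were handled as pairs. Of 39 members, 30 share under 5% of their 50-base stretches with another gene and 3 share over 25%: SLC9A3 (49.4%), ZDHHC11B (31.9%) and CCT5 (29.8%). The unknown depth limits the genes under 2 TPM most.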

Other observations

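Along chromosome 5, tested genes were taken in 531 windows of 20 neighbours. In the 30 windows with 10 or more genes of the 5p list the median difference was -1.33 to -0.94, the lowest from SLC12A7 to CMBL. In the 492 windows with no gene of the list it was -0.75 to 0.78. The lowest of these ran from SMAD5 to DNAJC18 and the highest from DND1 to FCHSD1, where 15 of 20 genes lay above 0. From the window with 9 genes of the list to that with 1, the median went from -0.87 to -0.35. As the list was proposed with this contrast in view, these ranges are a description. Windows overlap and share genes. Across genes, the difference and the mean level had a Spearman correlation of -0.24 over the 35 tested 5p genes and -0.03 over all 12261 tested genes.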
